A study of Mus musculus with 2 samples.

Results

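The TSSs described here were those with mostly Nsl1 reads in mouse embryonic stem cells (mESCs), chosen by their own ChIP-seq reads. For every protein-coding gene on mm9 the TSS that most of its protein-coding transcripts share was taken, and the reads of both libraries within 2 kb of it were counted. Of 22359 TSSs, 14583 held 100 or more reads of both libraries together, and at 772 of these the ratio of Msl1 to Nsl1 reads, each scaled to the library's depth as RPM, was 0.65 or less. These 772 were 5.29% of the TSSs with enough reads, a share that the limit of the ratio sets. The cells were wild type male E14 mESCs of the genetic background 129P2/OlaHsd at passage 26, without any treatment. They were grown on feeder cells and then for a passage without them. Cross-linked and sonicated chromatin was precipitated with a rabbit polyclonal antibody raised against a fragment of Msl1 or of Nsl1, and 1 library was sequenced per antibody. A difference between the antibodies is therefore a difference between 2 libraries, and no p-value can be given. The 95% intervals of ratios and levels at single TSSs, and of pooled ratios, are exact and cover counting error of reads only. Those of medians and shares are taken over the TSSs of a set, treated as independent, and measure no error between replicates. The libraries also differed in other ways: the Msl1 library held 19483142 distinct reads of 50 bases and the Nsl1 library 24883001 distinct reads of 36 bases, and they were prepared with different kits. These differences and the antibodies cannot be told apart. No Input library was used here, and ChIP reads do not measure expression, so the label of the cells could not be checked against marker genes.

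Msl1 and Nsl1 are subunits of the MSL and the NSL complex, which share the histone acetyltransferase Mof and differ in their other subunits. Mof acetylates lysine 16 of histone H4, a mark of open chromatin. MSL is best known from the dosage compensated X chromosome of male flies, whereas NSL is known from the promoters of widely expressed genes, and in mammals both complexes are found at autosomal genes.

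Promoters with low ratios are shown here because motifs in them are counted further on. Below are 7 promoters from mm9, from those with the lowest ratios that hold any motif searched for and have their Nsl1 maximum within 500 bases of the TSS. Each runs 5′ to 3′ in the direction of the gene, from 150 bases before the TSS to the 50 bases that begin with it. Capitals mark matches on either strand to the motifs of transcription factors: ETS (CCGGAAGT), YY1 (AAGATGGC), NRF1 (GCGCATGC), SP (GGGGCGGG), NFY (CCAATNNG), CRE (TGACGTCA), ZNF143 (ACTACAATT), CGCG (TCTCGCGA) and E2F (TTTNNCGC). The E-box (EBOX), with the letters CACGTG, was searched for in the same way. So was the TATA box, written as TATAAA. A match says only that these letters are present.
Sucla2 (chr14:73924976-73925175, + strand): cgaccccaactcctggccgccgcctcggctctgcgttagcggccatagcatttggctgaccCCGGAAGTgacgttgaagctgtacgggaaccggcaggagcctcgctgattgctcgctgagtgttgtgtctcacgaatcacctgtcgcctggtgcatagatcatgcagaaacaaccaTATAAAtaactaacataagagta
Mpzl3 (chr9:44863119-44863318, + strand): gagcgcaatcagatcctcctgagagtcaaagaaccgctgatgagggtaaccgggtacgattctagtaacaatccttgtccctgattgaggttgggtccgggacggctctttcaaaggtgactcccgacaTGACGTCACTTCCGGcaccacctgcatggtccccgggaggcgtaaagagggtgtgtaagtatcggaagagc
Ndufaf1 (chr2:119488508-119488707, - strand): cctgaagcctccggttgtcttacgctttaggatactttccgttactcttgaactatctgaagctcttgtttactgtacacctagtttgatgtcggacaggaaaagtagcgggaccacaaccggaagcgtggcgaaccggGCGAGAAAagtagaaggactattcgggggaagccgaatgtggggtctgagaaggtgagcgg
Ap1m1 (chr8:74763767-74763966, + strand): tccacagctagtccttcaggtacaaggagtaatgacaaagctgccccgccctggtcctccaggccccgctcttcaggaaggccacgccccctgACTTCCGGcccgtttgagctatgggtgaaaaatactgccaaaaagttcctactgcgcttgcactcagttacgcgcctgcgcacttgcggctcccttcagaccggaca
Mtx3 (chr13:93614592-93614791, + strand): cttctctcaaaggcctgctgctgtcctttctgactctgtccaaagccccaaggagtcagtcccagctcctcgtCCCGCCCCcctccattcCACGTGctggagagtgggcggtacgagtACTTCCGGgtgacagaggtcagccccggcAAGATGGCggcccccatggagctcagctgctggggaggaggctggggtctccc
2410001C21Rik (chr2:172265906-172266105, + strand): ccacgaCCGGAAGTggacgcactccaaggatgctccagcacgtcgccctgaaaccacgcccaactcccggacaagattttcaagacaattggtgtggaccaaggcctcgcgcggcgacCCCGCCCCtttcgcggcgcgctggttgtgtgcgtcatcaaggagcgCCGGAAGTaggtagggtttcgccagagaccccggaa
Mrpl48 (chr7:107731595-107731794, - strand): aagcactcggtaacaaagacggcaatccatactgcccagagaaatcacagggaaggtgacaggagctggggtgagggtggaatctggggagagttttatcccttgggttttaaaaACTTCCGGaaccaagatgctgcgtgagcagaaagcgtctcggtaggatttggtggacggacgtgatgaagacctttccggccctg
Of these 7 promoters, Sucla2, Mpzl3, Ap1m1, Mtx3, 2410001C21Rik and Mrpl48 held the ETS motif. It began at position -89 in Sucla2, -14 in Mpzl3, -57 in Ap1m1, -32 in Mtx3 and -35 in Mrpl48, counted from the TSS, and at -144 and 15 in 2410001C21Rik. In Mpzl3 the CRE and the ETS motif overlap by their last and initial base. In Mtx3, SP, EBOX, ETS and YY1 motifs follow each other, and the YY1 motif, which began at -3, lies across the TSS. Ndufaf1 held only an E2F motif. These promoters had to hold a motif to be shown and do not stand for all members, of which 16.7% held ETS.

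The values that chose the members are given as a description. Over the 772 TSSs the Nsl1 library held between 67 and 1923 reads within 2 kb with a median of 136, and the Msl1 library held between 21 and 955 with a median of 57. Their Msl1 to Nsl1 ratio ran from 0.168 to 0.649 with a median of 0.561. Among the 13811 other TSSs with enough reads the medians were 78 Nsl1 reads, 84 Msl1 reads and a ratio of 1.32. Both libraries thus set these TSSs apart, with more Nsl1 and fewer Msl1 reads than at the others. The 95% interval lay wholly below 1 at all 772 TSSs, which the limit and the minimum of reads fixed in advance. It lay wholly below the limit of 0.65 at only 173 of them (22.4%), so the others could lie on either side of the limit by counting error.

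**Figure D1:**
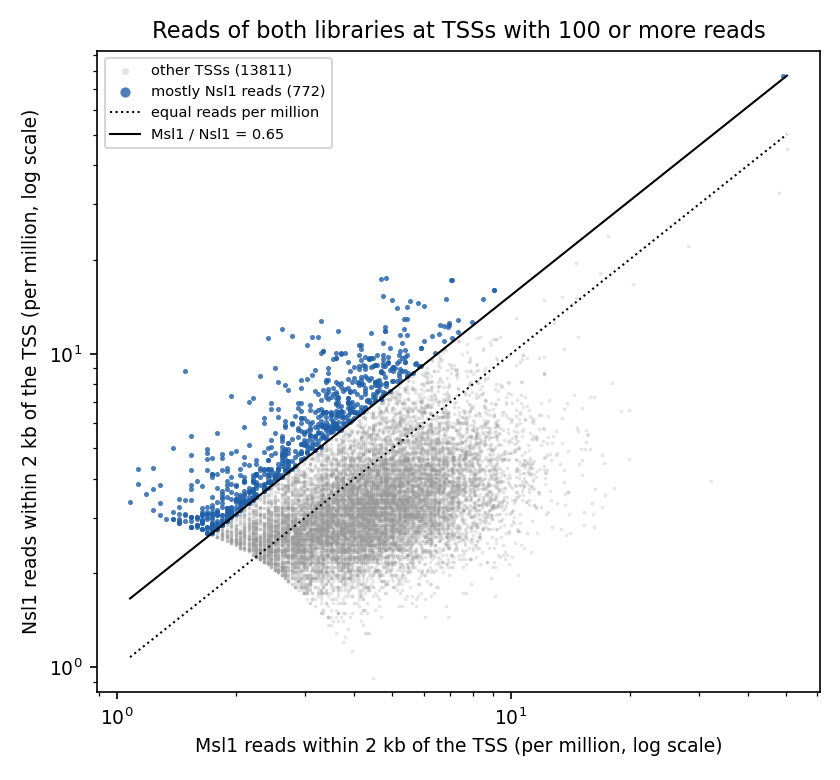
RPM within 2 kb of each TSS in the Nsl1 library (y axis) against the Msl1 library (x axis), both on log scales, for the 14583 TSSs with 100 or more reads. The 772 TSSs with mostly Nsl1 reads (blue) lie above the solid line of the ratio 0.65 because the line chose them, and the point highest on the y axis is Sfi1.

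To describe both libraries near the TSS, reads up to 500 bases from a TSS were set against the local level of that library, its mean reads per kb at distances of 5 to 50 kb. The Nsl1 reads stood at a median of 6.72 times the local level (interval 6.30 to 7.26) at the TSSs with mostly Nsl1 reads and at 2.14 times at the other TSSs (2.11 to 2.17). The Msl1 reads stood at 2.09 times (1.96 to 2.22) against 2.38 times (2.36 to 2.40). These reads are part of those that chose the members, so the levels are a description of the choice. At 399 TSSs (51.7%) both libraries reached 2 times the local level, and at 241 (31.2%) only Nsl1 did. Msl1 alone reached it at 4, and at 128 (16.6%) neither library did.

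As a second set for comparison, the 980 other TSSs with at least 136 Nsl1 reads were taken, which had at least the members' median of Nsl1 reads but a ratio above 0.65. Their median Nsl1 level was 6.35 times the local level (6.04 to 6.71), and their median Msl1 level was 3.10 times (3.02 to 3.18). At 82.3% of them both libraries reached 2 times the local level. These TSSs with many Nsl1 reads therefore resembled the members in their median Nsl1 level, though their median of 157 Nsl1 reads was above the members' 136. They stood above the members in Msl1, which follows from how they were chosen. Members with fewer than 136 Nsl1 reads have no counterpart in this set. Comparisons with it, also those of motifs, GC and CpG, are therefore not at equal reads.

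Sucla2, the ATP-forming subunit of succinyl-CoA synthetase in the TCA cycle, had the lowest ratio of all TSSs with enough reads. Its TSS (chr14:73925126) held 29 Msl1 reads and 220 Nsl1 reads, a ratio of 0.168 (interval 0.110 to 0.249). Nsl1 stood at 14.3 times the local level (12.3 to 16.5) and Msl1 at 1.01 times (0.461 to 1.92), so Msl1 was not detectable above its surroundings at this depth. Acsf3, a mitochondrial malonyl-CoA synthetase, held 47 Msl1 and 280 Nsl1 reads, and Ndufaf1, an assembly factor of respiratory complex I, held 54 and 284. Their ratios were 0.214 and 0.243, and Nsl1 stood at 15.98 and 21.7 times the local level. At these 3 mitochondrial genes most Nsl1 reads lay within 500 bases of the TSS, as did 181 of the 220 at Sucla2, and no bin of 100 bases held more than 5 Msl1 reads.

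Mpzl3, a membrane protein of the myelin protein zero family, held 51 Msl1 and 298 Nsl1 reads with a ratio of 0.219. Its Nsl1 reads formed a double peak, around the TSS and about 300 bases downstream. Stx18, a SNARE protein of the endoplasmic reticulum, held 64 and 316 reads with a ratio of 0.259, and its Nsl1 maximum lay at position 500, downstream of the annotated TSS. Ap1m1, a subunit of the AP-1 clathrin adaptor, held 22 and 107 reads with a ratio of 0.263, in an interval from 0.158 to 0.418 that is wide because of the low counts. Nsl1 was above Msl1 at each of these genes, but the place of the peak relative to the annotated start varied.

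**Figure D2:**
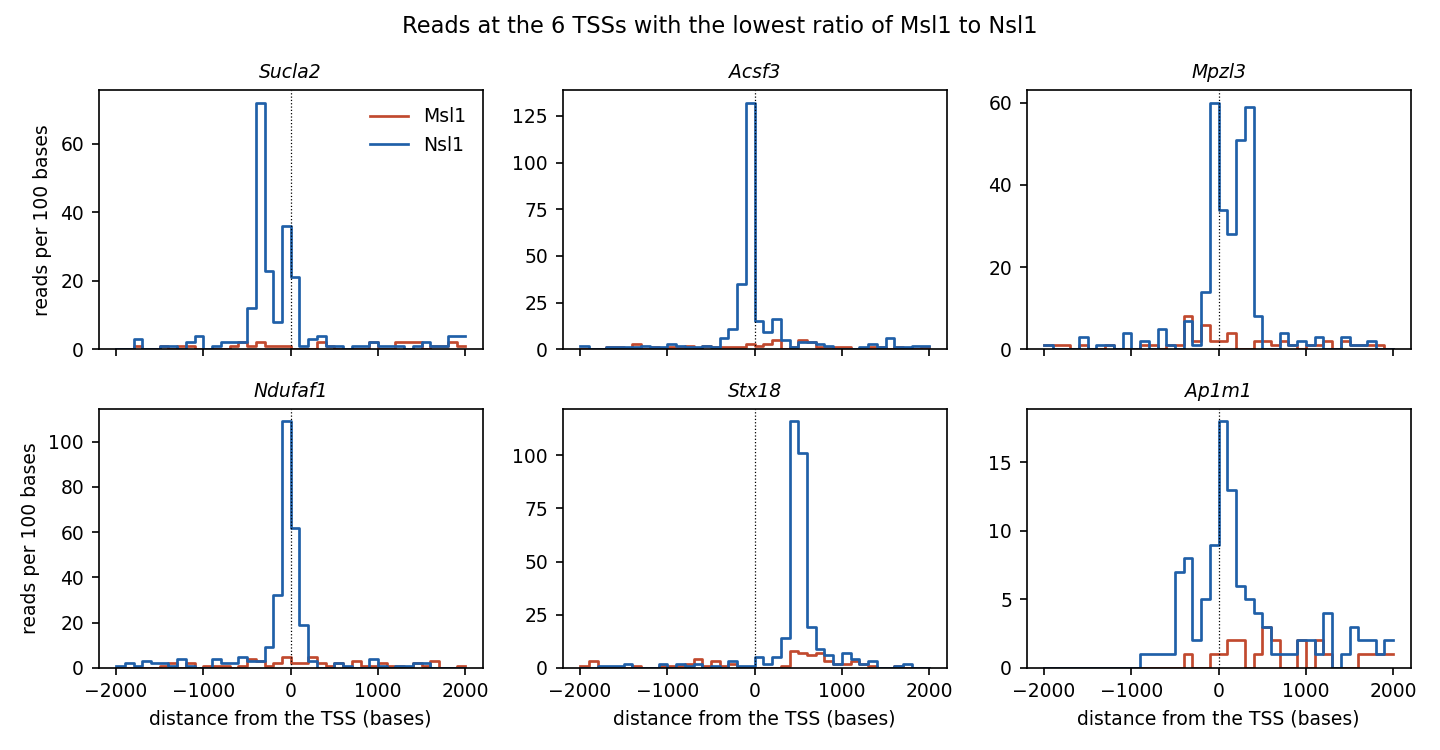
Reads in bins of 100 bases (y axis, a scale of its own in each panel) by distance from the TSS in bases, in the direction of the gene, for the Msl1 library (red) and the Nsl1 library (blue) at the 6 TSSs with the lowest ratio. The highest Nsl1 bin held 132 reads at Acsf3 and 18 at Ap1m1, while no Msl1 bin held more than 8.

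The next lowest ratios were those of Mtx3 (0.265; 38 Msl1 and 183 Nsl1 reads), a metaxin of the mitochondrial outer membrane, and 2410001C21Rik (0.272; 45 and 211). Snrnp200, the helicase that unwinds the U4 and U6 snRNAs in the spliceosome, had a ratio of 0.277 with 94 Msl1 and 434 Nsl1 reads. Its TSS lies 119 bases from that of 1810024B03Rik on the other strand (0.268; 91 and 433), so both count the same reads. Ybey, an RNase of ribosome maturation, had a ratio of 0.277 with 61 and 281 reads and shares them with Mcm3ap (0.285), a factor of mRNA export. Zfp114 had 27 and 125 reads and a ratio of 0.276, but Nsl1 stood at only 0.987 times the local level within 500 bases of its TSS. Its Nsl1 maximum lay at position -900, at no annotated TSS. Of the 12 TSSs with the lowest ratios, Zfp114 was the only one whose Nsl1 maximum did not lie within 500 bases.

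By the number of Nsl1 reads within 500 bases, Sfi1 came first with 961 reads, followed by Snrnp200 with 391, 1810024B03Rik with 389, Ighmbp2 with 378 and Mrpl21 with 372. Ighmbp2, a helicase, and Mrpl21, a protein of the large mitochondrial ribosomal subunit, lie 116 bases apart on opposite strands and had the highest Nsl1 levels of the 5, at 36.1 and 35.7 times the local level. Msl1 was also raised there, at 7.23 and 6.96 times. Sfi1, a centrin-binding protein, differed from the rest, since its local level was 165 Nsl1 reads and 96.2 Msl1 reads per kb against medians of 12.7 and 10.2 over all members. Over that level Nsl1 stood at 5.83 times and Msl1 at 3.47 times.

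At the limit, the values passed from inside to outside without a gap. Just inside were Ndufa10 (0.6487), Usp30 (0.6493) and Mrps27 (0.6493), and just outside were Nudt5 (0.6506), 1810026J23Rik (0.6509) and 1700012B15Rik (0.6511). Nudt5, which hydrolyses ADP-ribose, held 108 Msl1 and 212 Nsl1 reads with Nsl1 at 14.1 times the local level. Usp30, a deubiquitinase of the mitochondrial outer membrane, held 91 and 179 with Nsl1 at 8.13 times. The genes that the study tested by qPCR as bound by Nsl1 were also looked up. Nosip, which binds nitric oxide synthase, was a member with 78 Msl1 and 162 Nsl1 reads and Nsl1 at 6.72 times the local level. Poc1a, a centriole protein, was a member with 38 and 96 reads and Nsl1 at 4.20 times. Tnfsf13b, the cytokine BAFF, was a member with 42 and 91 reads, but Nsl1 stood at 1.504 times within 500 bases (0.905 to 2.35) and had its maximum at position 670. Dynlt1b, a dynein light chain, was not a member, with 52 and 58 reads and a ratio of 1.15. Nsl1 was raised there too, at 5.39 times the local level (3.69 to 7.61), and Msl1 stood at 2.81 times.

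The place of the Nsl1 maximum within 2 kb was taken as the 200-base window with the most Nsl1 reads. It lay within 500 bases of the member's own TSS at 662 of 772 (85.8%), near another TSS of the same gene at 20, near the TSS of another gene model at 4 and at no annotated TSS at 86. At the 20 with another TSS the maximum was as high as elsewhere, with a median of 23.8 times the local level against 20.3 at the 662. Examples were Vma21, an assembly factor of the vacuolar ATPase, with 43.2 times at position 830, and Stx16, a Golgi SNARE, with 70.6 times at position -770. At the 86 without an annotated TSS the median was 4.12 times, against 4.76 times at the other TSSs with enough reads and 4.32 times over all TSSs. As the value of the highest window, it can exceed the local level also without a peak. A minority of members therefore had no Nsl1 maximum near their own TSS. At the 86 the median maximum was no higher than at TSSs in general, and why they met the rule was not tested.

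The 128 TSSs at which neither library reached 2 times the local level overlapped with this minority. At 90 of them the Nsl1 maximum lay away from the member's TSS, the median of both libraries together was 115.5 reads, close to the minimum of 100, and 1 of the 128 held an ETS motif. Their median CpG ratio, the observed over the expected number of CpG within 500 bases on each side, was 0.230, against 0.714 at the 399 TSSs raised in both libraries and 0.619 at the 241 raised in Nsl1 alone. The 4 members among 37 olfactory and vomeronasal receptor genes with enough reads (Olfr139, Olfr1377, Olfr314 and Olfr209) had a median Nsl1 level of 1.90 times the local level and a median CpG ratio of 0.157. Of these 4, 2 had Nsl1 at 2 times the local level or more, and 1 had its Nsl1 maximum at its own TSS.

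Averaged over all 772, the Nsl1 reads formed a narrow peak. The highest bin of 50 bases ran from -50 to 0 and stood at 15.8 times the level at the upstream end of the window. The stretch above the midpoint between the lowest and highest bin was 250 bases wide. The Msl1 reads had their maximum from 200 to 250 bases downstream, at 4.10 times the upstream end, and a stretch of 600 bases above the midpoint. At the other TSSs the maxima of both libraries fell in the same bins, with 3.64 times and 550 bases for Nsl1 and 3.39 times and 750 bases for Msl1. At the 980 with many Nsl1 reads, Nsl1 reached 10.5 times over 300 bases. The heights rest on reads that the rule used and are a description, and the maxima lay in the same bins in all 3 sets.

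**Figure D3:**
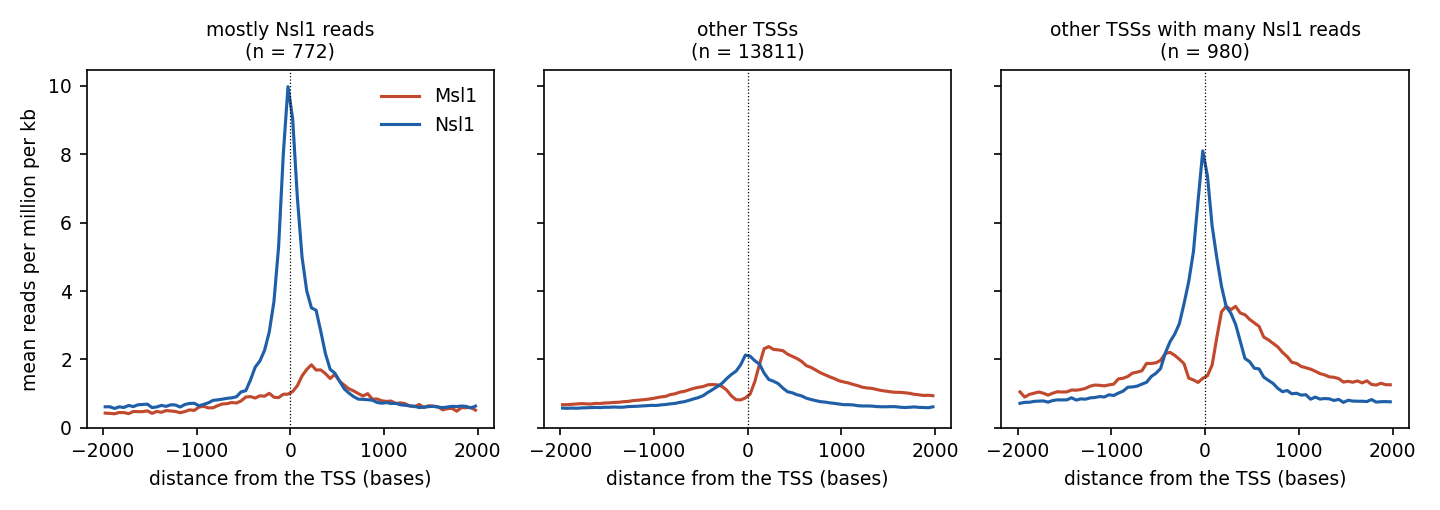
Mean RPM per kb (y axis) in bins of 50 bases by distance from the TSS, in the direction of the gene, for Msl1 (red) and Nsl1 (blue). Shown are the 772 TSSs with mostly Nsl1 reads, the 13811 other TSSs with enough reads, and the 980 of those with at least 136 Nsl1 reads. The Nsl1 maximum lies from -50 to 0 and the Msl1 maximum from 200 to 250 in all 3 panels.

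The places of the maxima at single TSSs rest on the same reads and are likewise a description. The median position of the Nsl1 maximum was 0, and it lay within 200 bases of the TSS at 69.7% of the members (66.3 to 72.9) against 46.9% of the other TSSs (46.1 to 47.7) and 68.7% of those with many Nsl1 reads (65.7 to 71.6). The Msl1 maximum had a median position of 200 at the members and of 280 at the other TSSs, and lay over 500 bases downstream at 18.3% of the members (15.6 to 21.2) and at 26.7% of the others (26.01 to 27.5). At the TSSs with many Nsl1 reads it did so at 20.1% (17.6 to 22.8), which overlaps the members.

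Reads beyond 2 kb were not used by the rule. From 2 to 5 kb on both sides, the median ratio of Msl1 to Nsl1 was 1.01 at the members (0.987 to 1.04), 1.21 at the other TSSs (1.201 to 1.214) and 1.35 at those with many Nsl1 reads (1.32 to 1.38). The lower ratio of the members thus reached past the window that chose them, with intervals of the medians that did not overlap. Pooled across all members, the ratio was 0.916 from 2 to 5 kb upstream (0.900 to 0.932) and 1.09 downstream (1.08 to 1.11), against 1.12 and 1.39 at the other TSSs. The Msl1 reads there were 0.475 RPM per kb upstream and 0.582 downstream, against 0.622 and 0.780 at the others. The Nsl1 reads were closer, with 0.519 and 0.533 against 0.556 and 0.561. From 20 to 50 kb the ratios were 1.05 on either side at the members and 1.12 upstream and 1.16 downstream at the others.

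**Figure D4:**
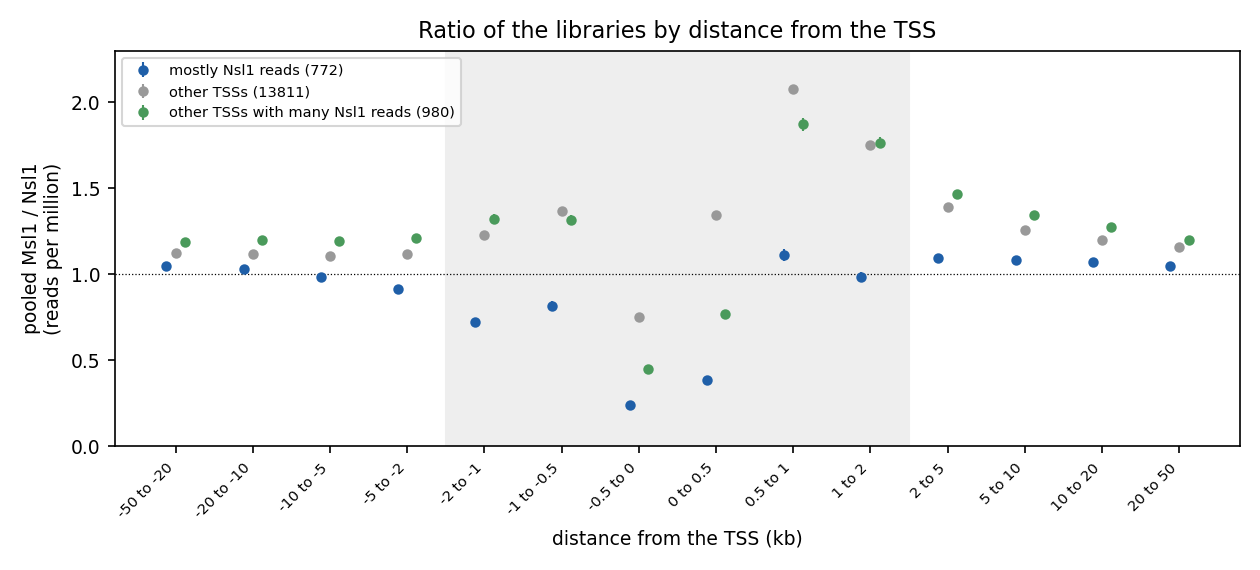
Pooled ratio of Msl1 to Nsl1 RPM (y axis) in windows by distance from the TSS (x axis, kb), with exact 95% intervals that are mostly smaller than the points. The grey band marks the 2 kb on each side that the rule used; outside it the members (blue) stay below the other TSSs (grey) and those with many Nsl1 reads (green), which are a subset of the grey set, at every distance shown.

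Within the window the ratio of the members was lowest next to the TSS, at 0.242 from 0 to 500 bases upstream and 0.384 from 0 to 500 bases downstream. It was 1.11 in the next 500 bases downstream (1.08 to 1.15), where the other TSSs reached 2.08. The Nsl1 reads of the members fell from 3.996 RPM per kb in the nearest 500 bases downstream to 0.919 in the next, while the Msl1 reads went from 1.54 to 1.02.

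Features of sequence were not used by the rule. The median GC content within 500 bases of the TSS was 54.1% at the members (53.7 to 54.5), 59.0% at the other TSSs (58.8 to 59.2) and 58.6% at those with many Nsl1 reads (58.2 to 58.9). The median CpG ratio was 0.654 (0.640 to 0.668), 0.709 (0.704 to 0.713) and 0.762 (0.752 to 0.771), and over all 22359 TSSs it was 0.549. The members were thus poorer in GC and CpG than the other TSSs with enough reads, and had a higher CpG ratio than TSSs in general. For CpG this depended on the choice of members. With a minimum of 50 reads their CpG ratio was 0.377 (0.349 to 0.413), below that of all TSSs, and with 500 bases on each side and a minimum of 25 reads it was 0.682 (0.674 to 0.689) against 0.687, within the interval. In 10 equal bins by ratio, the median GC content rose in every step from 54.3% in the lowest bin to 64.8% in the highest. The CpG ratio did not: it was 0.640 in the lowest bin, 0.594 and then 0.593 in the bins after it, and rose from there to 0.832. The bins next to the lowest were thus poorer in CpG than the lowest.

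To see how the ratio moved with GC content alone, it was also taken where no TSS is near. In tiles of 4 kb at least 20 kb from any TSS, the pooled ratio fell from 0.986 at 28 to 32% GC to 0.909 at 40 to 44%. It then rose in every step, to 0.916 at 44 to 48%, 0.947 at 48 to 52% and 1.01 at 52 to 56%. In windows of 4 kb around the TSS, 172 of the 888 TSSs with 40 to 44% GC were members, 331 of 3690 with 44 to 48%, 189 of 4915 with 48 to 52% and 65 of 3541 with 52 to 56%. Over these bins the median ratio of the TSSs with enough reads rose from 0.942 to 1.45. The part of GC content in the choice of the members was not tested beyond this.

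The ETS motif was found in 129 of 772 promoters of the members, counted from 250 bases before to 50 bases after the TSS. ETS factors such as Gabpa are known activators of housekeeping and mitochondrial genes. This was 16.7% (14.1 to 19.5) against 6.39% of the other TSSs (5.99 to 6.81) and 4.79% of all TSSs, and 20.5% of the TSSs with many Nsl1 reads (18.02 to 23.2). The share at the members, with its interval, thus lay above that at the other TSSs, and its interval overlapped that of the TSSs with many Nsl1 reads. Across those 10 bins it fell from 14.4% in the lowest to 2.95% in the highest. The share of the members depended on the minimum of reads. It was 9.03% against 4.93% of the other TSSs with a minimum of 50 reads, and 23.3% against 12.3% with 200. Of 142 matches in the members' promoters, 82.4% lay between 100 bases before and 50 bases after the TSS, with a median position of -20, and among the other TSSs the share was 82.9%. Within 100 bases of the Nsl1 maximum, wherever it lay, the motif was present at 17.4% of the members (14.7 to 20.2), 5.67% of the other TSSs and 19.7% of those with many Nsl1 reads. Members with the motif had a median Nsl1 level of 9.22 times the local level and those without it 6.07 times, and the Msl1 levels were 2.65 and 1.95 times. At the other TSSs both were also higher with the motif, at 4.39 against 2.04 times for Nsl1 and 2.91 against 2.34 times for Msl1. These levels rest on reads that the rule used and are a description.

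NRF1, a regulator of nuclear genes for mitochondrial proteins, had its motif in 7.38% of the members' promoters (5.64 to 9.46) and 4.58% of the others (4.24 to 4.95). The CRE motif, bound by CREB and ATF factors, was found in 5.96% (4.40 to 7.87) against 2.90% (2.63 to 3.20). At the TSSs with many Nsl1 reads the shares were 6.63% and 5.51%. At least 1 of ETS, NRF1 and CRE was present in 27.6% of the members' promoters (24.5 to 30.9), 13.1% of the others, 30.2% of those with many Nsl1 reads and 9.82% of all promoters.

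The SP motif, bound by Sp1 and its relatives, went the other way. It was present in 14.1% of the members' promoters (11.7 to 16.8), 31.02% of the others (30.2 to 31.8), 22.96% of those with many Nsl1 reads (20.4 to 25.7) and 21.3% of all promoters. NFY was also rarer, at 11.5% (9.36 to 13.99) against 17.5% of the others and 17.4% of those with many Nsl1 reads. The SP motif contains only G and C, and the members were lower in GC content, whose part in its share was not tested. Within 100 bases of the Nsl1 maximum the intervals of the members and the others overlapped. SP was present there at 8.94% of the members (7.02 to 11.2) and 10.6% of the others (10.1 to 11.1), and NFY at 6.48% (4.84 to 8.45) and 7.16%. For YY1 (4.15% against 3.94%), the E-box (9.84% against 9.52%) and TATA (8.81% against 7.44%) the intervals overlapped those of the other TSSs. E2F was found in 5.83% of the members' promoters (4.28 to 7.72) and 8.13% of the others (7.68 to 8.60). At the TSSs with many Nsl1 reads the shares were 6.73% for YY1, 14.5% for the E-box (12.3 to 16.9) and 5.41% for TATA. E2F stood at 11.4% there (9.504 to 13.6). In the promoters, E-box and E2F motifs were thus rarer at the members than at these TSSs, whose intervals lay above, but the reads of the 2 sets are unequal. Within 100 bases of the Nsl1 maximum the intervals overlapped. The E-box was present there at 9.197% of the members (7.25 to 11.5) and 11.4% of those with many Nsl1 reads (9.504 to 13.6). For E2F these shares were 5.05% (3.62 to 6.84) and 7.65% (6.07 to 9.499). The CGCG motif was found in 11 promoters of the members (1.42%, 0.713 to 2.54), 1.90% of the others and 3.78% of those with many Nsl1 reads (2.67 to 5.17), and ZNF143 in 7 promoters of the members (0.907%, 0.365 to 1.86), 0.608% and 1.22%. Over all 22359 promoters, NRF1 was present in 3.31%, CRE in 2.303%, NFY in 15.5%, YY1 in 3.34%, the E-box in 7.70%, E2F in 6.15%, TATA in 13.5%, ZNF143 in 0.483% and CGCG in 1.32%.

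**Figure D5:**
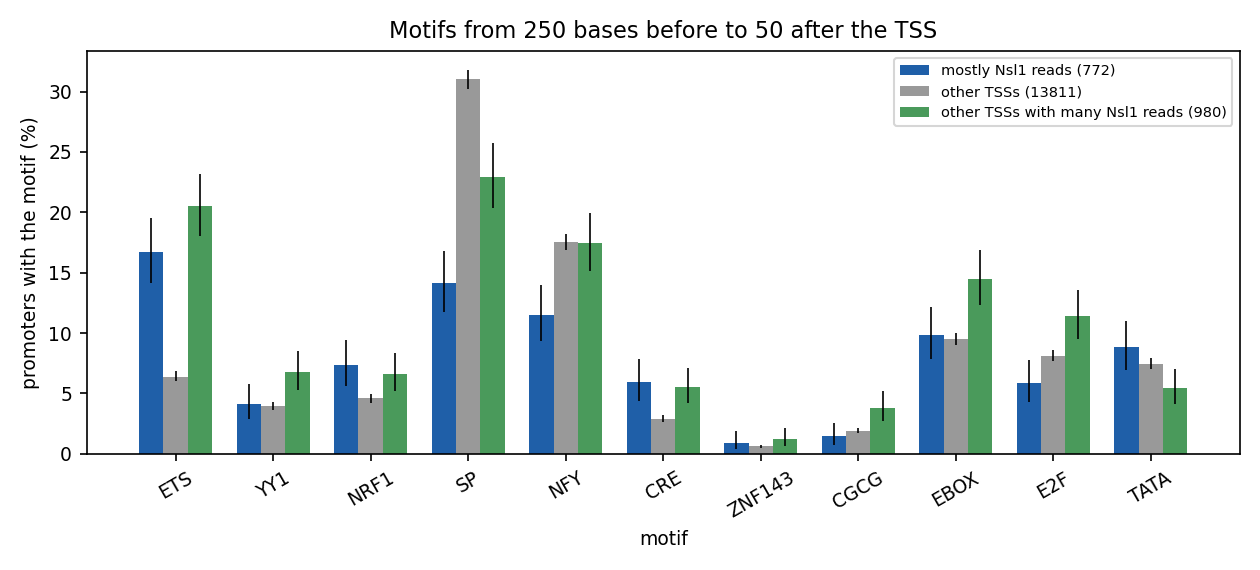
Share of promoters that hold each motif on either strand (y axis, percent) from 250 bases before to 50 bases after the TSS, with exact 95% binomial intervals. ETS stands at 16.7% in the 772 TSSs with mostly Nsl1 reads (blue), 6.39% in the other TSSs (grey) and 20.5% in those with many Nsl1 reads (green, a subset of the grey set), and SP at 14.1%, 31.02% and 22.96%.

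A divergent partner, another annotated gene that starts within 1 kb upstream on the opposite strand, was found at 18.01% of the members (15.4 to 20.9), 16.6% of the other TSSs (16.01 to 17.3) and 41.2% of those with many Nsl1 reads (38.1 to 44.4). The intervals of the members and the other TSSs overlapped. The comparison with many Nsl1 reads is not one at equal reads, since members below the median of 136 have fewer Nsl1 reads than any TSS of that set. Both TSSs of a divergent pair count the same reads, so the pairs are not independent. The 772 members lay at 713 separate loci, 59 of which held a pair of members, and with the lowest ratio of each locus kept the share was 12.5% (10.1 to 15.1), below that of the other TSSs, which were not thinned in the same way. The order also depended on the window and the minimum of reads. The share was 22.5% (21.1 to 23.9) against 13.9% with 500 bases on each side and a minimum of 25 reads, and 19.2% (17.2 to 21.2) against 15.9% with 1 kb and 50 reads. With 2 kb it was 28.9% (24.3 to 33.8) against 32.1% with a minimum of 200 reads and 10.6% (9.02 to 12.2) against 12.99% with a minimum of 50 reads.

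The median number of exons was 8 at the members and at the other TSSs. Length was taken as the genomic span of the longest protein-coding transcript that starts at the chosen TSS. Its median was 16774 bases (15452 to 17925) at the members, shorter than the 18906 (18306 to 19472) at the other TSSs. It was longer than the 12989 (12030 to 14323) at the TSSs with many Nsl1 reads and the 14199 over all TSSs. The first exon was also shorter than at the other TSSs, with 176 bases (166 to 185) against 222 (218 to 225). Members were found on every chromosome except Y, which had no TSS with enough reads. The share was highest on chromosome 13, with 40 of 513 TSSs (7.80%, 5.63 to 10.5), and lowest on X, with 3 of 125 (2.40%, 0.498 to 6.85), against 5.29% of all TSSs with enough reads. The interval of X holds that share, and 11 of the 40 members on chromosome 13 lie in a single stretch of 15 TSSs, described with the zinc finger genes. On X, in these male cells, only 125 of 932 TSSs had enough reads, against 14583 of 22359 over all chromosomes. The part of this in the share on X was not tested. On chromosome 8, 58 of 806 TSSs were members (7.20%, 5.51 to 9.20), in an interval above 5.29%. It was picked out from the intervals of all chromosomes, and the 58 include pairs that count the same reads, such as Dhx38 and Txnl4b.

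Of the gene groups looked up, 98 members were on at least 1 of 20 lists and 674 were on none. Of 76 mitochondrial ribosomal protein genes with enough reads, 15 were members (19.7%, against 5.29% of all TSSs with enough reads), and the median ratio of the 76 was 0.937 against 1.32 at the TSSs that were no members. Mrpl48 (49 Msl1 and 224 Nsl1 reads, ratio 0.279), Mrpl44 (59 and 265, 0.284) and Mrpl3 (71 and 294, 0.308) led them, with Nsl1 at 15.5, 22.3 and 29.03 times the local level. Mrpl21 (0.410), Mrpl30 (0.491) and Mrpl20 (0.547) followed. Over the 15 the median level was 9.31 times for Nsl1 and 3.57 times for Msl1, so Msl1 was raised there as well, and 12 of the 15 had it at 2 times or more.

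Members were also found among the enzymes that modify or charge tRNA and rRNA. Of 54 modification genes 9 were members (16.7%, 7.92 to 29.3, against 5.29%), with Adat2, a tRNA adenosine deaminase (80 and 247 reads, 0.414), Thg1l, which adds guanosine to tRNA-His (71 and 182, 0.498), Nsun3, a methyltransferase of mitochondrial tRNA (0.516), Elac2, which trims tRNA 3′ ends (0.552), Trub2, a pseudouridine synthase (0.560), and Elp3, the catalytic subunit of Elongator (0.565). Of 37 aminoacyl-tRNA synthetases 5 were members (13.5%), in an interval of 4.54 to 28.8% that holds the 5.29%. Wars2 (0.575), Pars2 (0.600) and Tars2 (0.647) serve the mitochondrion, and Eprs (0.599) and Farsa (0.635) the cytosol. In each of these groups the Nsl1 level of every member was at least 3.25 times the local level.

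In respiration, 8 of 76 subunit genes of the respiratory chain were members (10.5%, 4.66 to 19.7, an interval that holds the 5.29% of TSSs with enough reads), with the complex I subunits Ndufa9 (0.463), Ndufb7 (0.463), Ndufa12 (0.486), Ndufv1 (0.574) and Ndufs8 (0.591), and Cox7a2 of complex IV (0.559). The median ratio of all 76 was 1.196. Of 18 genes of the TCA cycle, Sucla2 and Dld, the dihydrolipoamide dehydrogenase (66 and 182 reads, 0.463), were members (11.1%, 1.38 to 34.7), which is no result about the group.

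Of 47 cilium and basal body genes 10 were members (21.3%, 10.7 to 35.7, against 5.29%), with a median ratio of 0.893 over the 47. The interval overlaps those of the mitochondrial ribosomal (11.5 to 30.5) and tRNA modification genes. The members included Wdr60 of the dynein that moves cargo back from the tip (24 Msl1 and 79 Nsl1 reads, 0.388), the BBSome subunits Bbs7 (27 and 74, 0.466), Bbs4 (36 and 91, 0.505) and Bbs2 (53 and 129, 0.525), Ift52 of intraflagellar transport (58 and 138, 0.537) and Rpgrip1l of the transition zone (43 and 97, 0.566). Their reads were fewer than at the mitochondrial ribosomal genes. The median Nsl1 level over the 10 was 4.73 times and the median Msl1 level 1.68 times the local level, and 3 of the 10 had Msl1 at 2 times or more.

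Zinc finger genes named Zfp held 29 members among 284 with enough reads (10.2%, 6.95 to 14.3, against 5.29%). Of the 29, 10 were on chromosome 13, where 20 Zfp TSSs had enough reads, and 8 of those lay within 0.686 Mb of chromosome 13 (from 67229162 to 67914753), where 11 of 15 TSSs with enough reads were members. Among them were Zfp455 (23 and 89 reads, 0.330), Zfp759 (25 and 95, 0.336), Zfp595 (30 and 106, 0.361) and Zfp457 (42 and 127, 0.422), with Zfp94 (24 and 108, 0.284) on chromosome 7. Outside chromosome 13 the share was 19 of 264 (7.20%, 4.39 to 11.01), in an interval that holds the 5.29%. This stretch was picked after its values were seen. The Zfp genes of such clusters are close copies, and only uniquely aligned reads were kept, at 36 bases for Nsl1 and 50 bases for Msl1, so their counts are uncertain. The part of this in their ratios was not tested.

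Smaller counts were seen in other groups. DNA repair had 5 of 67, with Fancf (25 and 83 reads, 0.385), Fancd2 (0.533) and Fanca (0.630) of the Fanconi anaemia pathway, Palb2 (0.607), which recruits Brca2, and Xrcc2 (0.620), which acts in recombination repair. Splicing factors had 4 of 55, with Snrnp200, Snrpc of the U1 particle (0.547), Prpf31 (0.598) and Snrnp27 (0.633) of the tri-snRNP. RNA polymerase subunits had 2 of 27, Polr3b (0.504) and Polr2k (0.552). Autophagy had 2 of 30, Atg7 (53 and 191 reads, 0.354) and Atg5 (0.630), which act in the conjugation of Atg12 and Atg8. Peroxisome biogenesis had 1 of 16, Pex3 (81 and 258 reads, 0.401), which shares its reads with Adat2. Cell cycle regulators had 2 of 69, Cdc16 of the anaphase promoting complex (0.546) and the pocket protein Rbl2 (0.644). Of 37 genes for olfactory and vomeronasal receptors with enough reads, 4 were members (10.8%, 3.03 to 25.4). The intervals of these shares are wide, the 5.29% of TSSs with enough reads lies in that of each list, and they are no result about the groups.

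No member was found among 78 cytosolic ribosomal protein genes with enough reads, 40 proteasome subunits, 43 core histone genes, 130 developmental transcription factors, 20 pluripotency genes and 11 genes of the Mof complexes themselves. Their median ratios were 2.06, 1.14, 1.54, 1.79, 2.51 and 1.53. A count of 0 allows a share of up to 4.62% for the cytosolic ribosomal protein genes and up to 2.80% for the developmental transcription factors, both below 5.29%, whereas the other lists are too short to tell. The cytosolic and mitochondrial ribosomal protein genes lay on either side of that 1.32, with their median ratios of 2.06 and 0.937. Nsl1 stood at medians of 3.58 and 5.95 times the local level in the whole lists, and Msl1 at 3.34 and 3.11 times.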

How the data were processed

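Msl1 and Nsl1 ChIP-seq of wild type mESCs, with 1 library each, was used. Per the submitters' processing notes, CASAVA 1.8.2 and Bowtie 0.12.7 were used, and the authors aligned to mm9 and kept unique reads. Each line of the deposited files is an alignment, with its coordinates and a score that is 255 on every line and was not used. Repeated positions had not been removed: 18.3% of the Msl1 and 4.56% of the Nsl1 nuclear reads. Here 1 read was kept per position and strand, and 5′ ends were moved by 105 bases (Msl1) or 67 bases (Nsl1). Positions were counted from 1. TSSs came from the GENCODE vM1 annotation of mm9, another release than the study used, and sequences from that genome (NCBIM37). Counting used Python 3.11.15, numpy 2.4.6, pandas 2.3.3, scipy 1.17.1 and matplotlib 3.10.9, and was tested on simulated data. Intervals of shares and ratios are Clopper-Pearson, those of levels Poisson, and those of medians from order statistics; they treat TSSs as independent. Alternatives were the window, the read minimum, the limit, repeated reads, the shift, the TSS, the scaling, 1 member per locus and the place of the Nsl1 maximum.

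The members and gene lists were chosen with earlier results of these data known. Named were the 12 lowest ratios, the 5 members with most Nsl1 reads within 500 bases, 3 TSSs on each side of the limit, up to 6 members per list, lowest ratios first, and 4 genes tested by qPCR; Vma21, Stx16 and Mcm3ap were named after their values were seen. Promoters printed also had their Nsl1 maximum within 500 bases. The promoter sequence of 1 further gene that met these criteria is not reported here.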

Additional observations from a re-analysis of the deposited data

How the results depend on the processing

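With 1 library per antibody the differences hold for these libraries, no replicate error is known, no paired analysis was possible because each antibody has a single library, and the read length, the kit and the antibody cannot be told apart. At 100 reads per TSS the counting interval of the ratio is wide, and low ratios below 200 reads are least certain. Of 12 alternatives, 2 were chosen after seeing the data, namely keeping 1 member per locus and requiring the Nsl1 maximum within 500 bases of the TSS. Of 108 values, 64 stayed within the interval of the main value or, for the number of members, within 1.5 times of it. With all reads kept, the median levels were 6.2999 (Nsl1) and 1.94 (Msl1) and the CpG ratio 0.639. With 1 kb on each side and 50 reads, there were 1508 members with an Nsl1 level of 5.75 and a ratio of 1.07 from 2 to 5 kb. With 500 bases and 25 reads, the values were 3414 members, levels of 4.70 and 1.90, a ratio of 1.14 from 2 to 5 kb, a CpG ratio of 0.682, 22.5% divergent and 14.001% with the ETS motif. With a minimum of 200 reads, they were 374 members, 11.2, 2.94, 1.12, 0.710, 28.9% and 23.3% in the same order, and with a minimum of 50 reads 1450, 2.31, 1.304, 0.925, 0.377, 10.6% and 9.03%. With a ratio of 0.5 or less, there were 214 members with levels of 10.4 and 2.33, a CpG ratio of 0.671 and 20.6% with ETS, and with 0.8 or less 1833 members with 4.71, 1.94, 0.626 and 13.6%. With each library over its own local level, the Nsl1 level was 7.45, the ratio from 2 to 5 kb was 1.11 and the CpG ratio 0.671, and 529 of the 772 TSSs were shared. With 1 member per locus, 12.5% were divergent. With the Nsl1 maximum within 500 bases, the levels were 7.92 and 2.33 and the CpG ratio 0.674. Another fragment shift and the most upstream TSS moved none of these values. In all 12 alternatives the ETS motif was more frequent, and the SP motif, the CpG ratio and the ratio from 2 to 5 kb were lower, than at the other TSSs. YY1 and divergent partners were higher in 9 and lower in 3. The 2 alternatives chosen after seeing the data filtered only the members, not the other TSSs. With the Nsl1 maximum within 500 bases in both sets, ETS stood at 19.2% of the members and 8.60% of the other TSSs. With 500 bases the CpG ratio of the other TSSs lay within the interval of the members. With a minimum of 50 reads the CpG ratio of the members fell below that of all TSSs.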
